A study of Vuilleminia comedens with 3 samples.

Results

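Lytic polysaccharide monooxygenases (LPMOs) and cellobiose dehydrogenase (CDH), the secreted enzymes of oxidative cellulose attack, were described here in Vuilleminia comedens, a crust-forming fungus that decays wood of broadleaved trees. The set held 5 of the 81106 assembled transcripts. They comprised 3 transcripts named glycoside hydrolase family 61 protein, 1 named cellulose-growth-specific protein and 1 named cellobiose dehydrogenase, all listed by transcript identifier. They were chosen by product name, with their counts in the same 3 libraries known, so their levels and patterns are given as a description. The 5 are the most abundant of 24 transcripts with such names, and the list states no threshold. The least abundant of the 5, TRINITY_DN13024_c0_g1_i1, had 3180 counts over all libraries, and the most abundant transcript outside it, TRINITY_DN27487_c0_g1_i1, had 1096.

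RNA came from 1 group of 3 libraries, labelled as independent biological replicates, of strain VcWVJH1 growing in autoclaved beech. Blocks of 2 cm3 were colonised on 0.5% malt extract plates for about 8 weeks. After removal of the surface mycelium, like-colonised blocks were paired face to face on perlite for 7 days at 20 °C in the dark, with the band around them taken away after 3 days. RNA was taken from the side of each block that touched its partner, so every library is of the same strain meeting itself, and no other condition was available for comparison. The material was ground wood with mycelium, in which a smaller share of hyphae making a transcript and less of it per hypha cannot be told apart.

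Cellulose is a crystalline polymer of glucose that hydrolytic enzymes open only slowly. LPMOs are copper enzymes that break its chains by oxidation, with molecular oxygen or hydrogen peroxide as co-substrate and an electron donor. They were first classed as glycoside hydrolase family 61, and cellulose-growth-specific protein is the name of such a protein from the mushroom Agaricus bisporus. CDH carries a flavin and a heme domain. It oxidises cellobiose, the product of cellobiohydrolases, and can pass the electrons to an LPMO. White-rot fungi typically carry many LPMO genes and few CDH genes.

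The 3 libraries, called A, B and C because the count columns had no names, held 111754018, 68151997 and 64236917 counts. Only 29.9% to 33.0% of these lay outside the 2 most abundant transcripts of the assembly. Levels are therefore given in residual CPM, counts per 1000000 counts outside those 2, when libraries are compared, and in RPKM, counts per kilobase and per 1000000 total counts, when transcripts are compared. A residual depth of 19747416 to 33450738 counts puts a floor of 3 counts at 0.0897 to 0.152 residual CPM. Product names are those of the best database match in another species and not functions measured in V. comedens.

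All 5 transcripts were lowest in library B, intermediate in library A and highest in library C. Their summed level was 549 residual CPM in library C, 265 in library A and 42.4 in library B, a 12.9-fold range. They took 0.0169% of all counts in library C (exact 95% interval 0.0166 to 0.0172), 0.00793% in library A (0.00777 to 0.00810) and 0.00140% in library B (0.00131 to 0.00149). The range rested on library B, since without it library C was 2.07-fold above library A. Without library C, library A was 6.25-fold above library B. All exact intervals cover counting error only.

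**Figure D1:**
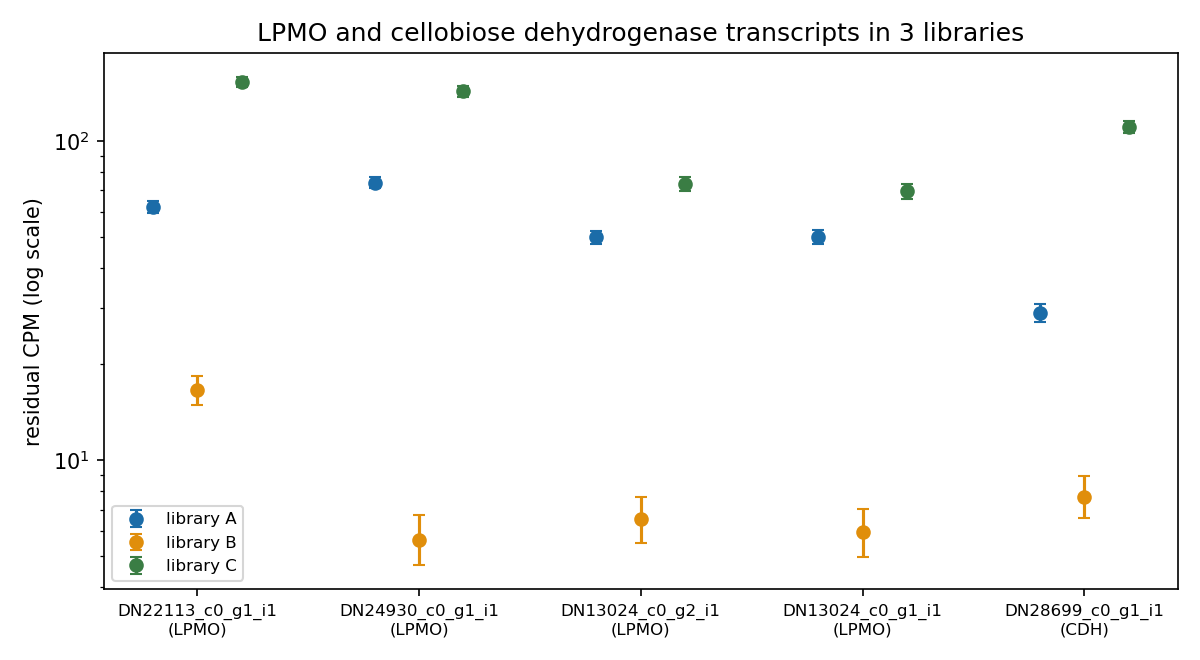
Level of each of the 5 transcripts in residual CPM (log axis) in libraries A, B and C, with exact 95% binomial intervals as bars. Library B is the lowest and library C the highest for every transcript, and the intervals of the 3 libraries do not overlap.

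TRINITY_DN22113_c0_g1_i1 was the most abundant LPMO transcript. It is 1031 bp long and its best match is a family 61 protein of Trametes versicolor, a white-rot polypore. It had 3013 counts in library C, 2077 in library A and 373 in library B. These were 153 residual CPM in library C (exact 95% interval 147 to 158), 62.1 in library A (59.4 to 64.8) and 16.6 in library B (14.9 to 18.4). Library C stood 9.20-fold above library B (8.26 to 10.3), the smallest range of the 5. Its mean was 22.9 RPKM ± 20.5 (SD, n = 3), and 11.7 without library C. By RPKM it ranked 872nd of all transcripts in library C, 2107th in library A and 5570th in library B.

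TRINITY_DN24930_c0_g1_i1, the cellulose-growth-specific transcript of 1051 bp, had the largest range. Its counts were 2823 in library C, 2476 in library A and 127 in library B. In residual CPM it had 143 in library C (138 to 148), 74 in library A (71.1 to 77.0) and 5.65 in library B (4.71 to 6.72). Libraries A and C were within 1.93-fold of each other, while library C was 25.3-fold above library B (21.2 to 30.5). The mean was 21.6 RPKM ± 20.0 (SD, n = 3), so the difference of its mean from that of TRINITY_DN22113_c0_g1_i1 was far inside the spread between libraries. In library A it was the higher of these LPMO transcripts, at 21.1 against 18.0 RPKM, and in library B the lower, at 1.77 against 5.31 RPKM.

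The assembler gene of the cellulose-growth-specific transcript had another isoform with a different best match. TRINITY_DN24930_c0_g1_i2, of 310 bp, matched the hypothetical protein PUNSTDRAFT_53391 of Punctularia strigosozonata, a relative in the order Corticiales. It had 197 counts in library C, 223 in library A and 5 in library B, or 9.98, 6.67 and 0.222 residual CPM, the same order of libraries. The entry PUNSTDRAFT_53391 was the best match of 5 transcripts, and 2 of these were isoforms of TRINITY_DN30066_c1_g1, an assembler gene with other isoforms named major cellobiohydrolase. No source used here says how reads shared between isoforms were assigned.

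TRINITY_DN13024_c0_g1_i1 and TRINITY_DN13024_c0_g2_i1 were near copies in every value available. Both are 1197 bp long, come from the same assembler cluster and match the same family 61 entry of T. versicolor. The first had 1374 counts in library C, 1672 in library A and 134 in library B, and the second had 1447, 1669 and 147 counts in libraries C, A and B. Library A has the larger depth, so library C was again the highest once scaled. The counts of the second were 1.05, 0.998 and 1.10 times those of the first in libraries C, A and B. If the pair are alleles or close paralogs, the split of reads between them is uncertain, and their sum is the safer value. Together they had 143 residual CPM in library C, 99.9 in library A and 12.5 in library B. Their summed level was 21.7 RPKM ± 16.9 (SD, n = 3), close to that of each of the other LPMO transcripts.

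For the DN13024 pair, libraries A and C lay closest together. Library C was 1.39-fold above library A for TRINITY_DN13024_c0_g1_i1 (exact 95% interval 1.30 to 1.5) and 1.47-fold for TRINITY_DN13024_c0_g2_i1 (1.37 to 1.58). Their ranges over all 3 libraries were 11.7-fold (9.77 to 14.0) and 11.2-fold (9.45 to 13.4).

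TRINITY_DN28699_c0_g1_i1, the CDH transcript, is 2467 bp long and matched P. strigosozonata entry PUNSTDRAFT_107198. It had 2179 counts in library C, 970 in library A and 173 in library B. Its level was 110.3 residual CPM in library C (105.8 to 115.1), 29.0 in library A (27.2 to 30.9) and 7.69 in library B (6.59 to 8.93). Library C took 75.0% of its depth-scaled counts, a larger share than for any of the 4 LPMO transcripts (55.4% to 66.0%). Its range was 14.3-fold (12.3 to 16.8), with library C 3.81-fold above library A (3.53 to 4.11) and library A 3.77-fold above library B. Its mean was 6.10 RPKM ± 6.74 (SD, n = 3), and 2.27 without library C.

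By RPKM the order of the mean levels ran from TRINITY_DN22113_c0_g1_i1 through TRINITY_DN24930_c0_g1_i1 and the DN13024 pair, at 11.03 and 10.7, to CDH. No neighbours in this order differed by more than the larger of their SDs between libraries. Within each library, however, CDH was the lowest of the 5, with 13.8, 3.52 and 1.03 RPKM in libraries C, A and B. TRINITY_DN22113_c0_g1_i1 made up 36.7% of the LPMO sum in library C, 28.1% in library A and 50.4% in library B. The share of TRINITY_DN24930_c0_g1_i1 was 33.7% in library C, 32.9% in library A and 16.8% in library B. The DN13024 transcripts held 14.4% to 19.5% each.

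The range was next set beside that of other transcripts. All 5 transcripts had a highest library at least 4-fold above the lowest. Of the 24194 transcripts with at least 100 counts over the libraries, 3.98% did, and 21.9% passed 2-fold. The order with library C above A and A above B was found in all 5 and in 19.1% of the 24194. Order and 4-fold range together held for all 5 and for 0.988% of the 24194. Among the 3831 transcripts with as many counts as the least abundant of the 5, 1.96% passed 4-fold and 1.04% also had the order. The median range was 1.51-fold. These shares depend on the minimum of 100 counts, as 44.7% of transcripts passed 4-fold when no minimum was set. Since the 5 were chosen with earlier results of these libraries known, no test accompanies these shares.

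**Figure D2:**
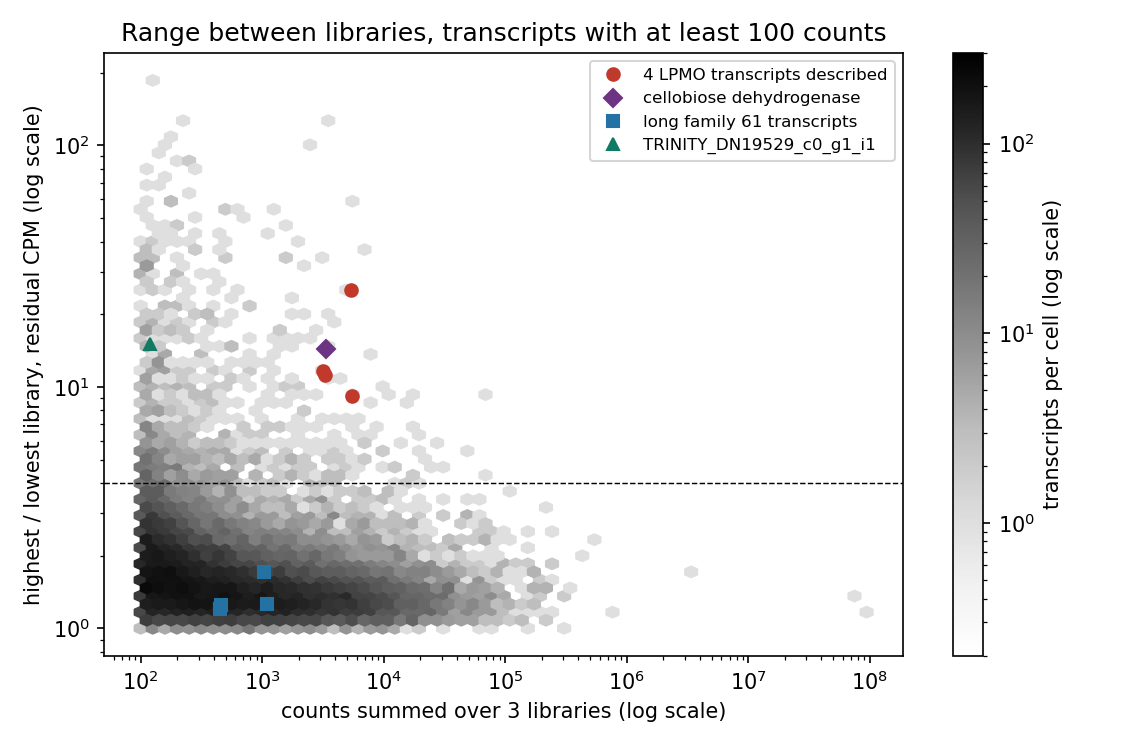
Range between the highest and the lowest library in residual CPM against counts summed over 3 libraries, both on log axes, for transcripts with at least 100 counts (grey, darker for more transcripts; 40 with 0 counts in a library are not drawn). The 4 LPMO transcripts and CDH lie between 9.20 and 25.3, above the dashed line at 4-fold, while 4 long family 61 transcripts lie between 1.2 and 1.72.

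The other transcripts with LPMO names were lower, and none of them had both the 4-fold range and the order C, A, B. In all, 22 transcripts carried such names, 16 of them family 61 and 6 cellulose-growth-specific, and all 22 had their best match in T. versicolor. Of these, 9 had at least 100 counts. Apart from the 4 described, 4 of the 9 were isoforms of TRINITY_DN27487_c0_g1 and TRINITY_DN30162_c1_g1, at 2272 to 3643 bp much longer than the others. TRINITY_DN27487_c0_g1_i1 had 12.9 residual CPM in library C, 16.3 in library A and 13.3 in library B. The 2 isoforms TRINITY_DN27487_c0_g1_i2 and TRINITY_DN30162_c1_g1_i3 ranged 1.72-fold and 1.2-fold. TRINITY_DN30162_c1_g1_i7 had 6.68, 6.07 and 5.34 residual CPM in libraries C, A and B, the order of the described transcripts over a range of 1.25-fold.

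These 4 long transcripts were thus nearly level across libraries, with ranges of 1.2-fold to 1.72-fold, and their mean levels were 0.499 to 1.94 RPKM. Their summed level was 39.1 residual CPM in library C, 45.1 in library A and 33.5 in library B. The 4 described LPMO transcripts summed to 438 residual CPM in library C, 236 in library A and 34.7 in library B. Residual CPM is not divided by length, and the long transcripts are 2272 to 3643 bp against 1031 to 1197 bp. The near-equal sums in library B are therefore not equal levels. In RPKM, the long transcripts had 0.483 to 1.92 each in library B, and the described ones 1.64 to 5.31.

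The remaining 14 LPMO-named transcripts were rare and mostly read in library A. TRINITY_DN19529_c0_g1_i1, of 866 bp, had 25 counts in library C, 90 in library A and 4 in library B. With at least 100 counts, it was the fifth LPMO-named transcript past 4-fold, at 15.1-fold, with library B lowest but library A highest. The other 13 were 204 to 613 bp long with 3 to 67 counts each. The 5 of them with at least 20 counts were TRINITY_DN22893_c0_g1_i1, TRINITY_DN22893_c0_g1_i2, TRINITY_DN14692_c0_g2_i1, TRINITY_DN8759_c0_g2_i1 and TRINITY_DN8759_c0_g1_i1. TRINITY_DN22893_c0_g1_i1 had the most, with 54 counts in library A, 2 in library C and 11 in library B. In residual CPM all 13 were highest in library A, but for TRINITY_DN46545_c0_g1_i1 this rested on 3 counts there and 2 counts in library B, which was the higher when scaled by total counts. Of the 13, 8 had 0 counts in library C, where the floor of 3 counts is 0.152 residual CPM. Together the 13 had 0.912 residual CPM in library C, 7.00 in library A and 1.82 in library B. The second CDH-named transcript, TRINITY_DN48913_c0_g1_i1, was 228 bp long with 3 counts, all in library A.

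Among all transcripts with a T. versicolor match and at least 20 counts, 434 of 5064 had over 90% of their depth-scaled counts in library A, while 2 did so in library C and 28 in library B. Of the 8876 such transcripts with a P. strigosozonata match, 5 did so in library A, 1 in library C and 8 in library B. The 5 described transcripts had 19.7% to 39.8% of theirs in library A. Whether the library A reads of the rare LPMO-named transcripts belong to that pattern was not tested.

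**Figure D3:**
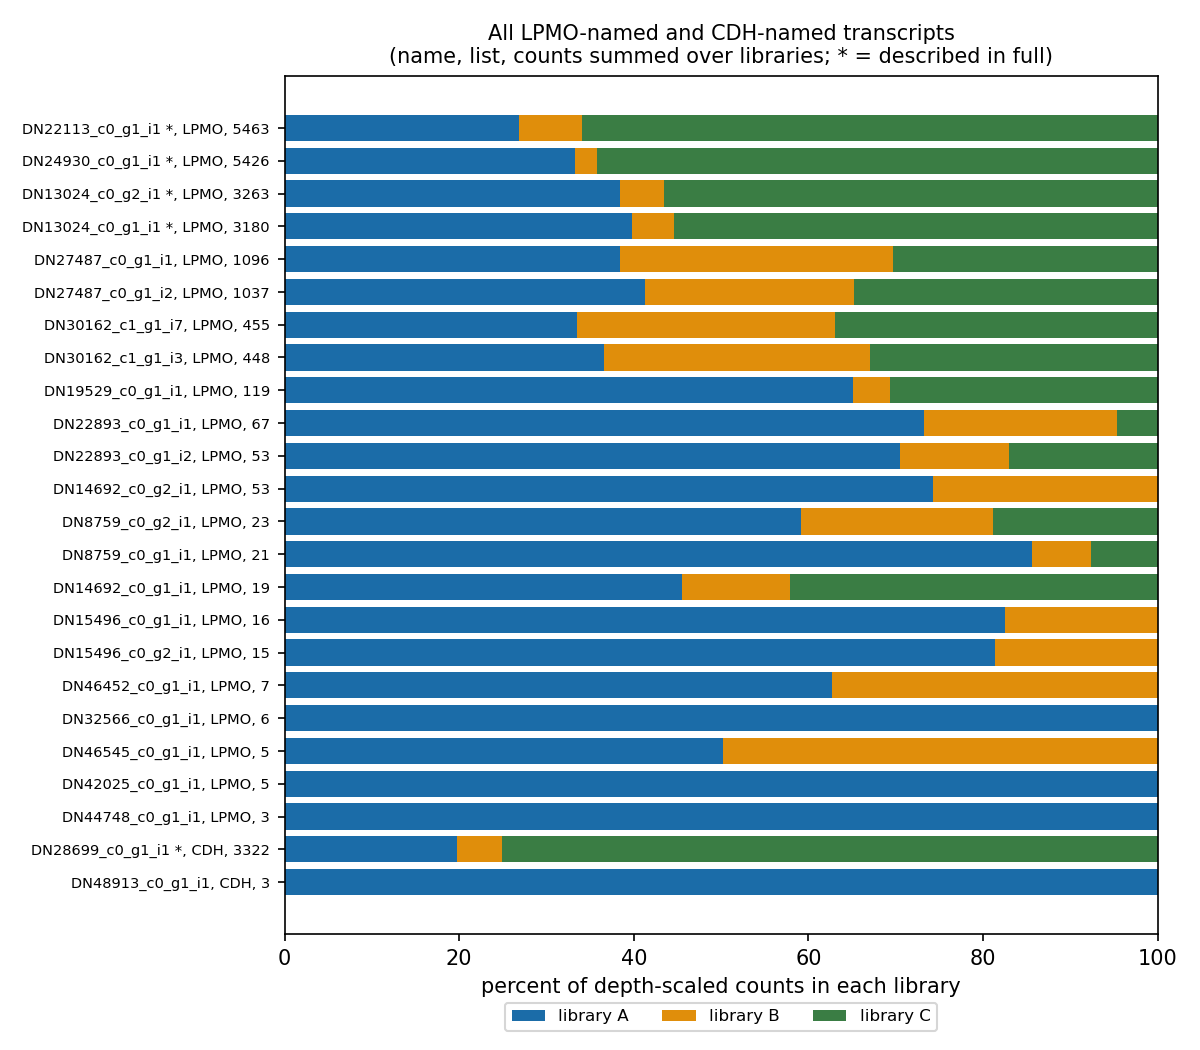
Percent of depth-scaled counts falling in libraries A, B and C for all 22 LPMO-named and 2 CDH-named transcripts, with counts summed over libraries beside each name. The 5 transcripts marked with an asterisk have 55.4% to 75.0% in library C, the 4 long ones a more even split, and the 13 rarest LPMO-named ones their largest share in library A, in 1 case by a difference of 1 count.

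LPMO and CDH levels were next set against each other, because CDH is a known electron donor of LPMOs. The sum of the 4 LPMO transcripts was 124 RPKM in library C, 64.1 in library A and 10.5 in library B. It exceeded CDH 9.02-fold in library C, 18.2-fold in library A and 10.2-fold in library B, with a mean ratio of 12.5 ± 5.0 (SD, n = 3). The ratio thus varied 2.02-fold while the LPMO sum varied 11.8-fold and CDH 13.4-fold in RPKM. The ratio was 5.54 without dividing counts by transcript length, as CDH is the longest of the 5.

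Other flavin enzymes of the glucose-methanol-choline (GMC) family can also serve LPMOs, as electron donors or sources of hydrogen peroxide. Such GMC names were carried by 43 transcripts, whose sum was 129 RPKM in library C, 176 in library A and 204 in library B. Its order of libraries was the opposite of that of the LPMOs, with library B highest. The ratio of the LPMO sum to this list was 0.962 in library C, 0.363 in library A and 0.0516 in library B. Most of the GMC counts came from the alcohol oxidase TRINITY_DN28637_c0_g1_i1, at 148 RPKM ± 35.9 (SD, n = 3). The next, the alcohol oxidase TRINITY_DN28582_c0_g1_i1, had 4.50 RPKM ± 1.28 (SD, n = 3). Of the 19 GMC transcripts with at least 100 counts, 0 passed 4-fold between libraries and 4 had the order C, A, B. With 3.98% of all such transcripts past 4-fold and 19.1% in that order, these counts were near the shares over the assembly.

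The hydrolytic enzymes of cellulose were compared in the same way. Cellobiohydrolases cut cellobiose from chain ends, endoglucanases cut within chains and beta-glucosidases split cellobiose. The LPMO sum was 1.69 times the cellobiohydrolase list in library C, 1.87 times in library A and 0.723 times in library B, a mean of 1.43 ± 0.616 (SD, n = 3). Relative to endoglucanases it was 3.17 in library C, 3.60 in library A and 0.847 in library B, a mean of 2.54 ± 1.48 (SD, n = 3). Relative to beta-glucosidases it was 0.730 in library C, 0.598 in library A and 0.107 in library B. Against each of these 3 lists the LPMO sum was lowest in library B. With all 22 LPMO-named transcripts in place of the 4, the mean ratio was 1.69 to cellobiohydrolases and 2.95 to endoglucanases. Against the cellobiohydrolase II transcript TRINITY_DN23969_c0_g1_i1 alone it was highest there, at 6.82, with 2.35 in library C and 4.91 in library A.

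The ratio to cellobiohydrolases depended on names. TRINITY_DN30066_c1_g1 has 2 isoforms named major cellobiohydrolase and 7 named hypothetical protein, and the 7 held most of its level, at 52.4 of 56.5 RPKM. With all its isoforms and 8 transcripts named CEL6 added, a choice made after the values were seen, the ratio was 0.673 in library C, 0.813 in library A and 0.466 in library B, a mean of 0.651 ± 0.175 (SD, n = 3). That gene followed the library order of the LPMOs, with 414 residual CPM in library C, 156 in library A and 20.8 in library B. Leaving out the oligoxyloglucan reducing end-specific cellobiohydrolase TRINITY_DN30299_c0_g1_i1 instead, which acts on a hemicellulose, gave 2.32. Leaving family 9 out of the endoglucanases gave a ratio of 4.38 to that list, and both omissions were likewise chosen after the values were seen.

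**Figure D4:**
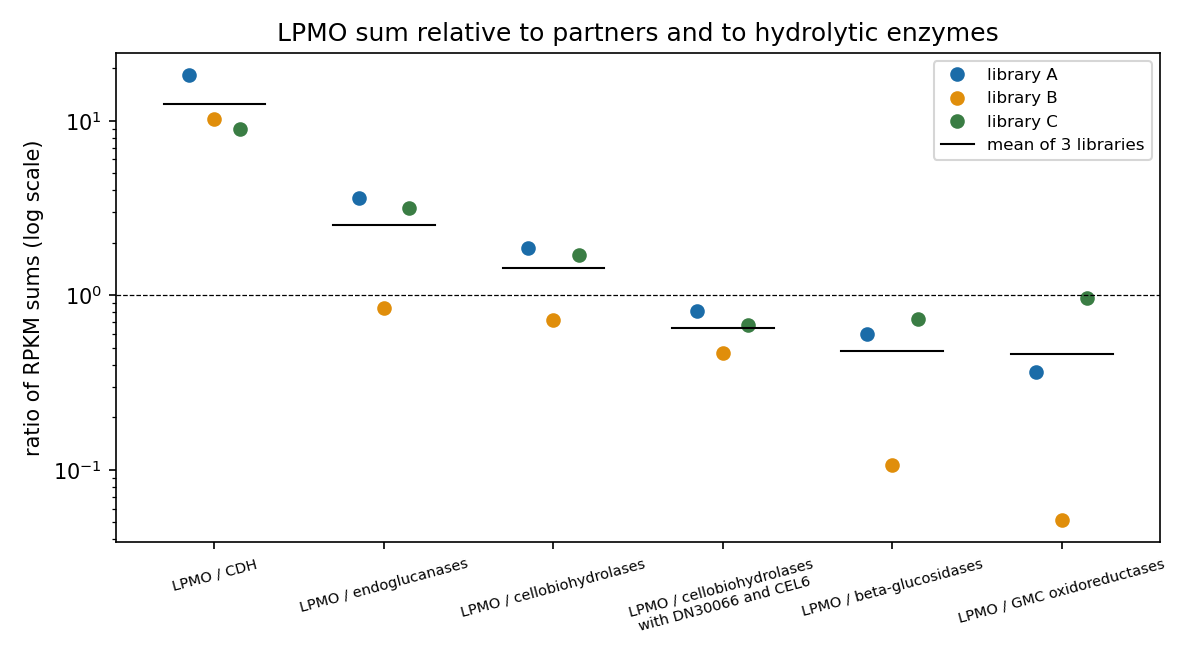
Ratio of the RPKM sum of the 4 LPMO transcripts to CDH and to enzyme lists (log axis) in libraries A, B and C, with the mean of the 3 as a line. The LPMO to CDH ratio lies between 9.02 and 18.2, and for the lists library B is the lowest point of each ratio.

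Several cellulose enzymes shared the wide range and the library order of the LPMOs and CDH. Over the 15 other lists, 136 transcripts had at least 100 counts, and 14 of these had both a range of at least 4-fold and the order C, A, B. Of the 24194 transcripts with at least 100 counts, 0.988% had both and 3.98% had the range, and the counts for each list are to be read beside these shares. All 14 were on the lists of cellobiohydrolases, endoglucanases, beta-glucosidases and hemicellulases.

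Of the 4 cellobiohydrolase transcripts with at least 100 counts, 3 passed 4-fold and 2 of these had the order. The most abundant by mean RPKM was the cellobiohydrolase II TRINITY_DN23969_c0_g1_i1, at 22.5 against 8.62 for the longer TRINITY_DN30299_c0_g1_i1. It had 267 residual CPM in library C, 68.0 in library A and 7.29 in library B, a 36.7-fold range. TRINITY_DN30299_c0_g1_i1 had more counts over all libraries, 9695 against 7717. Its level was 91.1, 140 and 143 residual CPM in libraries C, A and B, with library C the lowest. The third past 4-fold, the cellobiohydrolase I TRINITY_DN24769_c0_g1_i1, was named after its values were seen and had 34 counts in library C, 358 in library A and 84 in library B.

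Of 10 endoglucanase transcripts, 8 passed 4-fold and 7 of these had the order, 4 of them isoforms of TRINITY_DN23618_c0_g1. In those 4 isoforms library A was only slightly above library B, at 4.78 to 6.52 against 3.82 to 5.43 residual CPM. Library C had 16.2 to 28.6, so they were high mainly in library C. For the 5 described transcripts library A was 3.74-fold to 13.1-fold above library B. The endoglucanase TRINITY_DN23921_c0_g1_i1 had 50.9 residual CPM in library C, 17.0 in library A and 2.58 in library B, and its mean was 5.54 RPKM ± 5.86 (SD, n = 3). The family 9 transcript TRINITY_DN26210_c0_g1_i1 was nearly level, at 23.1, 31.1 and 30.1 residual CPM in libraries C, A and B.

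Of 19 beta-glucosidase transcripts, 4 passed 4-fold, all with the order, and 3 of the 4 were isoforms of TRINITY_DN26987_c0_g1. The most abundant by RPKM were outside that group. The family 3 transcript TRINITY_DN29196_c0_g1_i1 ranged 1.23-fold and the beta-glucosidase TRINITY_DN29643_c0_g1_i2 3.43-fold.

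Of 27 hemicellulase transcripts, 3 passed 4-fold and 1 of these had the order. This was the acetylxylan esterase TRINITY_DN25086_c1_g1_i2, which removes acetyl groups from xylan, with 219 residual CPM in library C, 70.5 in library A and 16.0 in library B. The family 51 transcript TRINITY_DN26541_c0_g1_i1 ranged 1.33-fold.

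Copper radical oxidases supply hydrogen peroxide, which LPMOs can use, and 0 of 12 passed 4-fold, a count that does not stand apart from the 3.98% over all transcripts. Their sum was 3674 residual CPM in library C, 4263 in library A and 4730 in library B. The glyoxal oxidase precursors TRINITY_DN29123_c1_g1_i1 and TRINITY_DN29123_c1_g1_i3 ranged 1.86-fold and 1.24-fold. Among enzymes that remove superoxide and peroxide, 2 of 20 passed 4-fold and 0 of these had the order. The manganese superoxide dismutase TRINITY_DN20069_c0_g1_i1 ranged 1.02-fold and the peroxiredoxin TRINITY_DN24637_c0_g1_i1 1.29-fold.

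Copper for the LPMO active site is handled by copper transporters and chaperones, and 0 of 5 such transcripts passed 4-fold, again too few transcripts to stand apart from the 3.98%. Their sum was 392.2 residual CPM in library C, 398 in library A and 206 in library B, with library B again lowest. Most of it came from the copper chaperones TRINITY_DN6549_c0_g1_i1 and TRINITY_DN6549_c0_g2_i1, which each ranged 1.99-fold. Of 14 sugar transporter transcripts 0 passed 4-fold, likewise near that share. The monosaccharide transporter TRINITY_DN28385_c0_g1_i1 came nearest, with 171 residual CPM in library C, 74.4 in library A and 51.2 in library B. The transporter TRINITY_DN17550_c0_g1_i1 ranged 1.39-fold. The single expansin-like transcript with at least 100 counts, the cerato-platanin-like TRINITY_DN18485_c0_g1_i1, ranged 2.94-fold and was highest in library A.

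**Figure D5:**
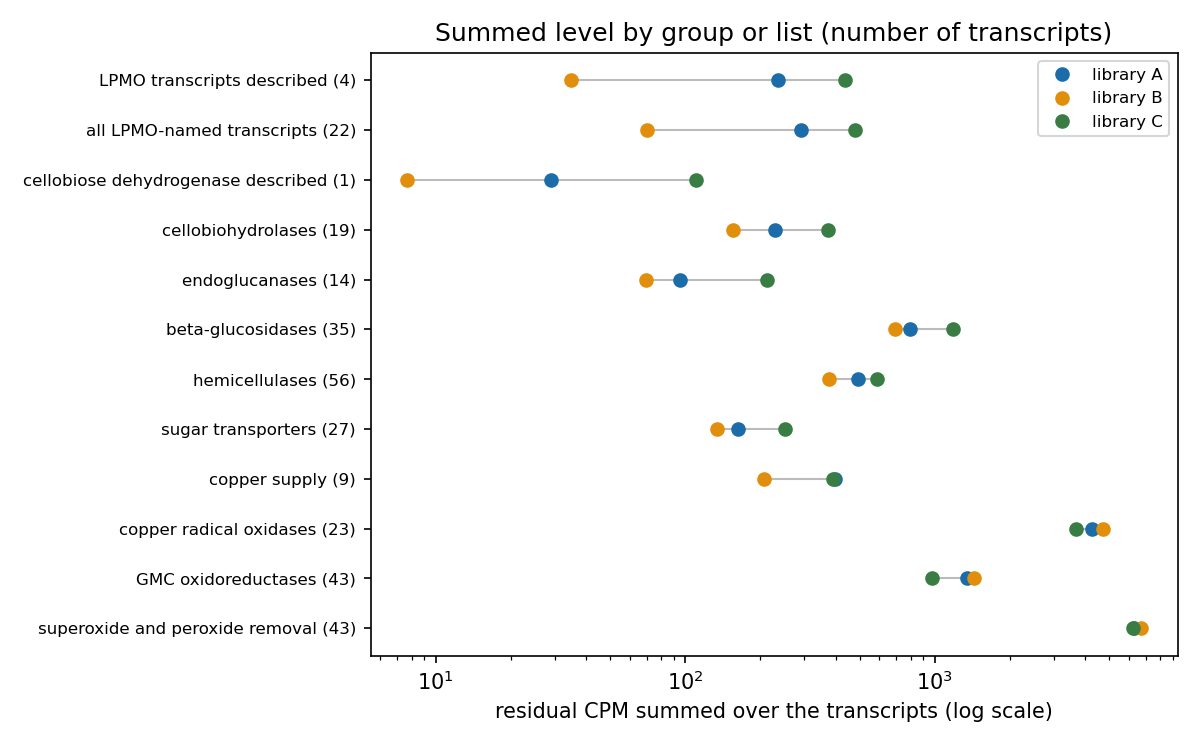
Residual CPM (log axis) in libraries A, B and C, summed over the 4 described LPMO transcripts, all 22 LPMO-named transcripts, the described CDH transcript and each whole functional list, with the number of transcripts in brackets. The 4 LPMO transcripts span 12.6-fold, all 22 span 6.83-fold and CDH spans 14.3-fold. The whole lists of cellobiohydrolases and endoglucanases span 2.39-fold and 3.06-fold. The first of these depends on names, as the TRINITY_DN30066_c1_g1 isoforms named hypothetical protein are outside it and together span 19.7-fold. Library B is the highest for copper radical oxidases, GMC oxidoreductases and superoxide and peroxide removal.

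The transcripts whose library pattern was most like that of each of the 5 were then named. Likeness was the Euclidean distance between log2(residual CPM + 0.1) values over the 3 libraries, each centred on the transcript's own mean. The pool was the 11455 annotated transcripts with at least 100 counts, and 5 with a product name other than hypothetical protein were taken per transcript. With 3 libraries such a distance is a description of shape only.

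Among themselves, the DN13024 pair were nearest, at a distance of 0.0952. CDH was nearest to TRINITY_DN22113_c0_g1_i1, at 0.514, and farthest from TRINITY_DN24930_c0_g1_i1, at 1.27. The LPMO transcripts farthest apart were TRINITY_DN22113_c0_g1_i1 and TRINITY_DN24930_c0_g1_i1, at 1.34, so an LPMO transcript could be less like another LPMO transcript than like CDH.

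For TRINITY_DN22113_c0_g1_i1 the nearest named transcript was the beta-glucosidase TRINITY_DN25308_c0_g1_i1, at 0.153. It had 108 counts in library C, 65 in library A and 12 in library B. The next 4 were the acetylxylan esterase TRINITY_DN25086_c1_g1_i2 and the 3 isoforms of TRINITY_DN26987_c0_g1, named beta-glucosidase 1B or family 1 protein.

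For both DN13024 transcripts the nearest, after each other, were those 3 isoforms and the pectin lyase-like TRINITY_DN18059_c0_g1_i1. Pectin lyase cuts the pectin that holds cell walls together. TRINITY_DN26987_c0_g1_i1 was the closest of these, at 0.358 from TRINITY_DN13024_c0_g2_i1, with 28.0 residual CPM in library C, 16.0 in library A and 2.93 in library B.

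The cellulose-growth-specific TRINITY_DN24930_c0_g1_i1 had the fewest close neighbours, with 25 pool transcripts within a distance of 1, against 76 for TRINITY_DN22113_c0_g1_i1. Its nearest was an alpha/beta-hydrolase, TRINITY_DN23295_c0_g1_i1, at 0.197, but this had only 52 counts in library C, 49 in library A and 0 in library B. Next were the major cellobiohydrolase isoform TRINITY_DN30066_c1_g1_i2, the phosphate transporter TRINITY_DN24825_c0_g5_i1, the endoglucanase V-like TRINITY_DN23769_c0_g1_i2 and the endoglucanase TRINITY_DN23921_c0_g1_i1. In this order they had 4, 1, 0 and 58 counts in library B, so all but the last also rested on few counts there.

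CDH was nearest to the acetylxylan esterase TRINITY_DN25086_c1_g1_i2, at 0.218. The next were the checkpoint protein CHK1-like TRINITY_DN23815_c0_g1_i3, the family S53 protease TRINITY_DN23555_c0_g1_i1, the beta-glucosidase TRINITY_DN25308_c0_g1_i1 and TRINITY_DN22113_c0_g1_i1. Within a distance of 1 from at least 1 of the 5 lay 101 other transcripts, 0.882% of the pool. Of these, 58 were hypothetical proteins, a count given without the share of such names in the pool. On the lists of cellobiohydrolases, endoglucanases, beta-glucosidases or hemicellulases were 10, and these lists held 59 transcripts of the pool. The 10 include isoforms of the same assembler gene, TRINITY_DN26987_c0_g1, so they are not 10 separate genes.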

How the data were processed

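Poly(A) RNA was made into stranded libraries and read as 125 bp pairs, per the labels' protocols. The authors deposited whole-number read counts per assembled transcript, not normalised, in 3 columns without names. The tools named, without role or order, were SAMtools 0.1.19, Bowtie2 2.2.6 and cutadapt 1.2.1, per the submitters' processing notes. For the assembler, the counting rule and whether strand was used, nothing is given in the sources used here. The authors also deposited a best-match annotation from a search against their own database, per the file headers, and 22605 transcripts had a match.

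Residual CPM, RPKM and exact (Clopper-Pearson) 95% intervals were computed with Python 3.11.15 and scipy 1.17.1, and scaling alternatives with edgeR 4.0.16 and DESeq2 1.42.0. The range was the highest over the lowest library, and a transcript with 0 in 1 library counted as past 4-fold. With 1 group of 3 libraries no test between conditions was possible, and errors are SDs over libraries. The 5 transcripts and the word lists matched to the annotation were chosen with earlier results of these data known. Named besides the 5 were the 2 transcripts of highest RPKM with at least 100 counts in each list, LPMO- and CDH-named transcripts with at least 20 counts, and the nearest 5 by pattern. Of the other lists, cellulose-binding modules, catabolite and wood-response regulators and plant words matched 0 transcripts. Bacterial words matched 3, led by TRINITY_DN29055_c0_g1_i3 and TRINITY_DN26027_c0_g1_i7, and viral words 5, led by the antiviral helicases TRINITY_DN30316_c2_g1_i1 and TRINITY_DN29312_c0_g1_i1, and 0 of these passed 4-fold. Procedures were tested on simulated counts.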

Additional observations from a re-analysis of the deposited data

How the results depend on the processing

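The order with library C highest and library B lowest held for the 5 transcripts and their sum under total counts, TMM and DESeq2 scaling. The summed range of 12.9-fold was 12.05 with total counts, outside its counting interval, and 12.5 with TMM, and ran from 2.07 to 12.9 when 1 library was left out. Without dividing by length, the LPMO sum was 5.54 times CDH and 0.810 times the cellobiohydrolases. With lists changed after the data were seen, the ratio to cellobiohydrolases was 2.32 without the oligoxyloglucan transcript and 0.651 with the DN30066 isoforms and CEL6, and the ratio to endoglucanases was 4.38 without family 9. With the mean RPKM of the DN13024 pair in place of its sum, the ratio to CDH was 10.3. With 1 library left out, the ratios ran from 9.62 to 14.2 for CDH, from 1.21 to 1.78 for cellobiohydrolases and from 2.01 to 3.39 for endoglucanases. The share of the most abundant LPMO ran from 32.4% to 43.6%.

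The share of transcripts past 4-fold depended on the count filter, with 44.7% without a minimum, 31.1% at 10 counts and 2.03% at 1000. With at least 20 counts, 20 list transcripts in place of 14 had both the range and the order. With a pseudocount of 0.5 the nearest-pattern rule named 12 transcripts, 11 of them among the original 16. No paired analysis was possible because there is 1 group. Library B gave 127 to 373 counts per described transcript, which limits the precision of every range.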

Other observations

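Some transcripts within a distance of 1 from the LPMO or CDH pattern belonged to no list used above, and those named here were chosen after their values were seen. The family S53 protease TRINITY_DN23555_c0_g1_i1, of a family of secreted acid peptidases, had 6401 counts in library C, 2726 in library A and 705 in library B, or 23.7 RPKM ± 25.4 (SD, n = 3). The serine carboxypeptidase TRINITY_DN27979_c0_g1_i1 had 3945, 5306 and 1243 counts in libraries C, A and B, a 3.61-fold range in residual CPM. The alpha/beta-hydrolase TRINITY_DN24256_c0_g1_i1 was the more abundant, at 102 RPKM ± 84.8 (SD, n = 3), with 935 residual CPM in library C, 297 in library A and 197 in library B. The general substrate transporter TRINITY_DN27647_c0_g1_i1 had 260 residual CPM in library C, 62.1 in library A and 39.8 in library B.

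Of the 964 transcripts with at least 100 counts and a range of at least 4-fold, 278 were highest in library C, 581 in library A and 105 in library B.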
